A study of Mus musculus with 47 samples.

Results

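The 8 heat shock chaperone genes were measured in the hypothalamus of mice given FGF1, a fibroblast growth factor, into a brain ventricle (intracerebroventricular, icv). They were taken by symbol from a bulk RNA-seq table of counts per gene: Hspa1a, Hspa1b, Hspa8, Hsph1, Dnajb1, Hsp90aa1, Hsp90ab1 and Hspb1. These are 8 of the 14221 genes in the table, and all 8 passed the filter on low counts, which removed 0 genes. The study examined how a single icv dose of FGF1 changes the hypothalamus of diabetic mice over time. There were 47 libraries, each from 1 mouse. All mice were male ob/ob (Lep ob/ob), which lack functional leptin, and their age is labelled as 11 weeks. FGF1-treated mice received 3 µg and were killed on Day 1 (10 mice), Day 5 (9 mice) or Day 42 (5 mice). Vehicle-treated mice were pair-fed to the FGF1-treated mice and are labelled non-diabetic on Day 1 (4 mice), Day 5 (7 mice) and Day 42 (5 mice), and diabetic in a further Day 5 group of 7 mice. The study's methods state that mice whose blood glucose stayed too low to count as diabetic were left out, so what the non-diabetic label records, and when, is not clear from the sources used here. Every group therefore lacks functional leptin, and no lean or uninjected mice are among the 47. The study's methods name human recombinant FGF1 in phosphate-buffered saline, an implanted lateral ventricle cannula and a frozen punch of hypothalamus, so each value is an average over all cell types in the punch.

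Heat shock proteins keep other proteins folded. Small heat shock proteins hold unfolding proteins in soluble complexes, HSP70 proteins bind and release them in cycles driven by ATP, with J-domain proteins that start the cycle and HSP110 proteins that exchange the nucleotide, and HSP90 proteins finish the folding of clients such as kinases and steroid receptors. Some members are made at all times (Hspa8, Hsp90ab1), and others are switched on under stress by heat shock factor 1, which binds arrays of inverted GAA units upstream of its target genes (Hspa1a, Hspa1b, Dnajb1, Hsph1, Hsp90aa1, Hspb1).

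Hspb1, Hspa1a and Hspa1b are known targets of heat shock factor 1, and their start regions are shown first. The table of RefSeq sequences used here (build GRCm38.p6) held the start regions of 5 of the 8 genes: Hspb1, Hspa1a, Hspa1b, Hsph1 and Dnajb1. The 250 bases before the transcription start are shown for Hspb1 (chr5:135887669-135887918, + strand), Hspa1a (chr17:34972157-34972406, − strand) and Hspa1b (chr17:34959239-34959488, − strand), 5′ to 3′ on the strand of the gene. Capitals mark each match to GAANNTTC, a pair of GAA units facing each other, where N is any base. The pattern reads the same on both strands.
Hspb1: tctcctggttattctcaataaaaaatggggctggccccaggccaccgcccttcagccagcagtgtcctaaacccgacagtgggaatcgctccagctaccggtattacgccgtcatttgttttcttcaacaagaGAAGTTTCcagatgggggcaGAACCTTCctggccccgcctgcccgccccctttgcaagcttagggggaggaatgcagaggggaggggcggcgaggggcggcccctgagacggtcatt
Hspa1a: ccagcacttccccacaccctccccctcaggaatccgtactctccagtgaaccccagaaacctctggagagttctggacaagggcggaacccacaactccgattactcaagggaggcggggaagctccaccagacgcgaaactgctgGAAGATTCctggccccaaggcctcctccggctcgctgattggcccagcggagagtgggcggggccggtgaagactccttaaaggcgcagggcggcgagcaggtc
Hspa1b: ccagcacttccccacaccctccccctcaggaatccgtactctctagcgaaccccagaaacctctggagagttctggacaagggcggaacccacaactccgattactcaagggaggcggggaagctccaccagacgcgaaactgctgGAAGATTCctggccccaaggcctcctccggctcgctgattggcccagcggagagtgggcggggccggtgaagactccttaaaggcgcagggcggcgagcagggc
The Hspb1 window held 2 such pairs, at positions -117 to -110 and -97 to -90 relative to the start. Hspa1a and Hspa1b each held 1, at -104 to -97, and these windows differed from each other at only 3 of 250 bases (98.8% identity). GAANNTTC was found in 6.69% of all 32851 windows of this length. The opposite arrangement, TTCNNGAA, occurred in 7.17% of all windows and was found in both RefSeq start regions of Hsph1 (at -33 to -26 of the first) and in neither of Dnajb1. No window of the 5 genes held an exact match to 3 alternating units spaced by 2 bases, an arrangement present in 153 of the 32851 windows. Only exact letters were searched, so units with a changed base were neither counted nor marked. These matches describe letters only. Binding of a factor was not measured, and any part of the matches in the expression results was not tested.

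Several of the genes share sequence with copies elsewhere, which bears on how reads could be assigned. The study's methods give paired reads of 100 or 50 bases, from either of 2 instruments, without stating which mice were run on which. Hspa1a (chr17:34969190-34972156) and Hspa1b (chr17:34956436-34959238) lie side by side on the − strand of GRCm38, and their coding sequences differed at 8 of 1923 aligned bases (99.6% identity). Of all 50-base stretches of the Hspa1a transcript, 58.8% were found unchanged in Hspa1b, so the split of reads between them is uncertain. The exons of Hspa1a also overlap the annotated gene Gm20481 on the opposite strand. For Hspb1 (chr5:135887919-135889563), 51.6% of 50-base stretches and 42.7% of 100-base stretches were shared with the pseudogene Hsp25-ps1, which is not among the 14221 genes. For Hspa8 (chr9:40800984-40810087) 73.2% of 50-base stretches and for Hsp90aa1 (chr12:110690605-110702728) 58.5% were shared with other annotated transcripts, mainly the Gm15459 and Gm12346 loci. The 3 snoRNA genes of the Snord14 family lie in Hspa8 on the same strand. Hsph1 (chr5:149614287-149636376) shared 0% of its 50-base stretches, Dnajb1 (chr8:83608193-83612653) 0.407% and Hsp90ab1 (chr17:45567775-45573271) 4.49%. Hspa1b and Hspa8 (74.6% identity) and Hsp90aa1 and Hsp90ab1 (76.3% identity) are less alike in coding sequence.

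Library totals ran from 1243280 to 47082400 counts. The lowest belonged to FGF1-treated replicate 1 of Day 1, in which Hspa1a had 3 counts, Hspa1b 1 and Hspb1 41. Day 5 libraries held 7579700 to 12451600 counts, except FGF1-treated replicates 8 and 9 with 30009300 and 27922100. Each day carries 1 preparation code of its own, so day and preparation cannot be told apart, and levels were tested only within a day. Of 8 genes typical of hypothalamic neurons all 8 were in the table and none was at 0 in any group. Genes with very few counts were already absent from the table, where the lowest total of a gene over all libraries was 307. Genes typical of cortical and hippocampal neurons (3 of 6 in the table) summed to 5.65 to 12.2 CPM (counts scaled to a common library total) in FGF1-treated mice of Day 1 and to 23.7 to 596 CPM in those of Day 42, against 24.1 to 99.6 CPM in vehicle-treated mice of Day 42.

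The genes differed widely in level per kilobase of transcript. In vehicle-treated mice of Day 1 the median was 761 CPM per kb for Hsp90ab1, 543 for Hspa8 and 298 for Hsp90aa1. The co-chaperones followed, with 80.3 CPM per kb for Hsph1 and 22.9 for Dnajb1. The other stress-inducible genes were near the floor, with 2.03 CPM per kb for Hspb1, 0.725 for Hspa1a and 0.455 for Hspa1b. In these 4 mice no gene overlapped its neighbour in this order. On Day 5 Hspa8 came first in vehicle-treated mice labelled non-diabetic (779 CPM per kb) and Hsp90ab1 second (387), the reverse of Day 1, and the ranges of Hspa1a and Hspa1b overlapped. On Day 42 the order was again that of Day 1, with overlap only between Hspa1a and Hspa1b. FGF1-treated mice of Day 1 had 44.8 CPM per kb of Hspb1, a median above that of Dnajb1 in the same mice (25.1), although the ranges overlapped (28.4 to 87.2 against 22.6 to 34). Together the 8 genes took 0.4236% to 0.4659% of raw counts in vehicle-treated and 0.5147% to 0.6304% in FGF1-treated mice of Day 1.

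**Figure D1:**
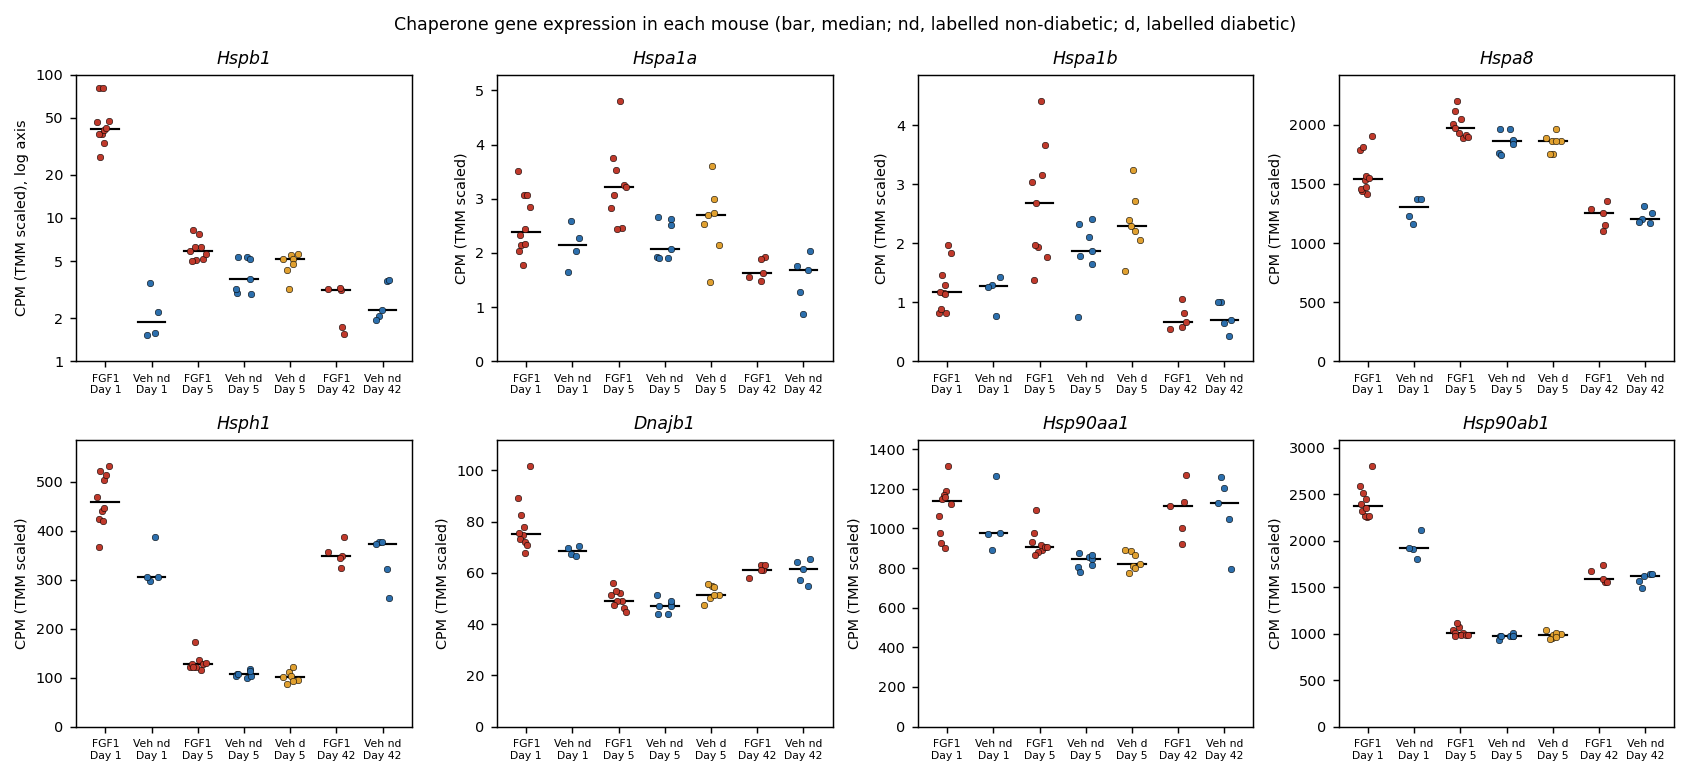
Expression of each gene in each mouse, in CPM scaled by TMM factors; each point is 1 mouse, red FGF1, blue vehicle labelled non-diabetic, yellow vehicle labelled diabetic, and bars are medians. The Hspb1 axis is logarithmic and the others start at 0. All 10 FGF1-treated mice of Day 1 lay at 26.4 CPM of Hspb1 or higher and no other mouse exceeded 8.23.

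Hspb1, which encodes the small heat shock protein known as HSP25 in mice and HSP27 in humans, had by far the largest change. On Day 1 the vehicle-treated mice had 3.49, 1.58, 1.51 and 2.19 CPM. The FGF1-treated mice ranged from 26.4 to 81.1 CPM with a median of 41.7, and a pair of them, at 80.5 and 81.1, stood above the rest. The lowest FGF1-treated mouse was thus well above the highest vehicle-treated one. The fold change was 22 (95% interval 15 to 32.3), a log2 fold change of 4.46 (SE 0.28), with an adjusted p of 1.15e-17 by edgeR's quasi-likelihood test with Benjamini-Hochberg adjustment over all genes, the test used throughout. It was the 9th largest rise among 14221 genes by log2 fold change. Without the library of lowest depth the log2 fold change was 4.49, and it was 4.07 after quantile normalization with limma.

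The constitutive members rose in every FGF1-treated mouse of Day 1, but by far less. Hsp90ab1, the main HSP90 of resting cells, had 1914, 1807, 1922 and 2121 CPM in the vehicle-treated mice and 2255 to 2805 (median 2372) in the FGF1-treated mice. The groups did not overlap, with a log2 fold change of 0.32 (SE 0.05, adjusted p = 1.06e-06). Hspa8, the constitutive HSP70 that also uncoats clathrin vesicles, had 1163, 1373, 1233 and 1369 CPM with vehicle and 1416 to 1906 (median 1545) with FGF1. These groups did not overlap either, and the log2 fold change was 0.31 (SE 0.07, adjusted p = 0.000108).

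The HSP70 partners also rose on Day 1. Hsph1, the HSP110 nucleotide exchange factor, had 297, 386, 306 and 305 CPM in the vehicle-treated mice, of which replicate 2 stood above the other 3. The FGF1-treated mice had 368 to 533 CPM (median 458), and 9 of 10 lay above all vehicle-treated mice. The log2 fold change was 0.52 (SE 0.09, adjusted p = 1.45e-05). Dnajb1, the J-domain protein that pairs with inducible HSP70, had 67.5, 66.7, 69.6 and 70.3 CPM with vehicle and 67.6 to 102 (median 75.2) with FGF1. Here 9 of 10 FGF1-treated mice lay above all vehicle-treated mice and the log2 fold change was 0.20 (SE 0.07, adjusted p = 0.0125). The Dnajb1 call was lost when Day 1 was fitted alone (adjusted p = 0.103) and after quantile normalization with limma (adjusted p = 0.0639).

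The inducible HSP70 and HSP90 genes did not pass on Day 1. Hspa1a had 2.58, 2.03, 1.65 and 2.27 CPM in the vehicle-treated and 1.77 to 3.51 (median 2.39) in the FGF1-treated mice. Its twin Hspa1b had 1.29, 0.762, 1.26 and 1.42 CPM with vehicle and 0.815 to 1.96 (median 1.17) with FGF1. Both pairs of groups overlapped widely. The log2 fold changes were 0.25 (SE 0.18, adjusted p = 0.255) and 0.14 (SE 0.24, adjusted p = 0.671), and the 95% intervals allowed at most a 1.52-fold rise for each. With the counts of both genes summed the log2 fold change was 0.21 (adjusted p = 0.308). Hsp90aa1, the inducible HSP90, had 889.5, 1264, 974 and 979 CPM with vehicle and 904 to 1316 (median 1137) with FGF1. Vehicle-treated replicate 2, the same mouse that was high in Hsph1, lay within the upper part of the FGF1 range. The log2 fold change was 0.10 (SE 0.09, adjusted p = 0.398), but after quantile normalization with limma it was 0.22 with an adjusted p of 0.0149. Leaving out 1 vehicle-treated mouse moved it between 0.03 (without replicate 1) and 0.21 (without replicate 2), with no call.

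In all, 5 of the 8 genes passed on Day 1, all higher, where 23.4% of all genes passed as higher and 45% passed in either direction. The median log2 fold change of the 8 was 0.28, against 0.01 over all genes. With an absolute log2 fold change above 0.5 also required, 2 of 8 passed (Hspb1 and Hsph1), against 19.5% of all genes. For 3 of 8 genes (Hspb1, Hspa8 and Hsp90ab1) the lowest FGF1-treated mouse exceeded the highest vehicle-treated one, against 7.56% of all genes. Members and lists were chosen with earlier results of these data known, so comparisons with the share of all genes, here and below, are descriptions.

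**Figure D2:**
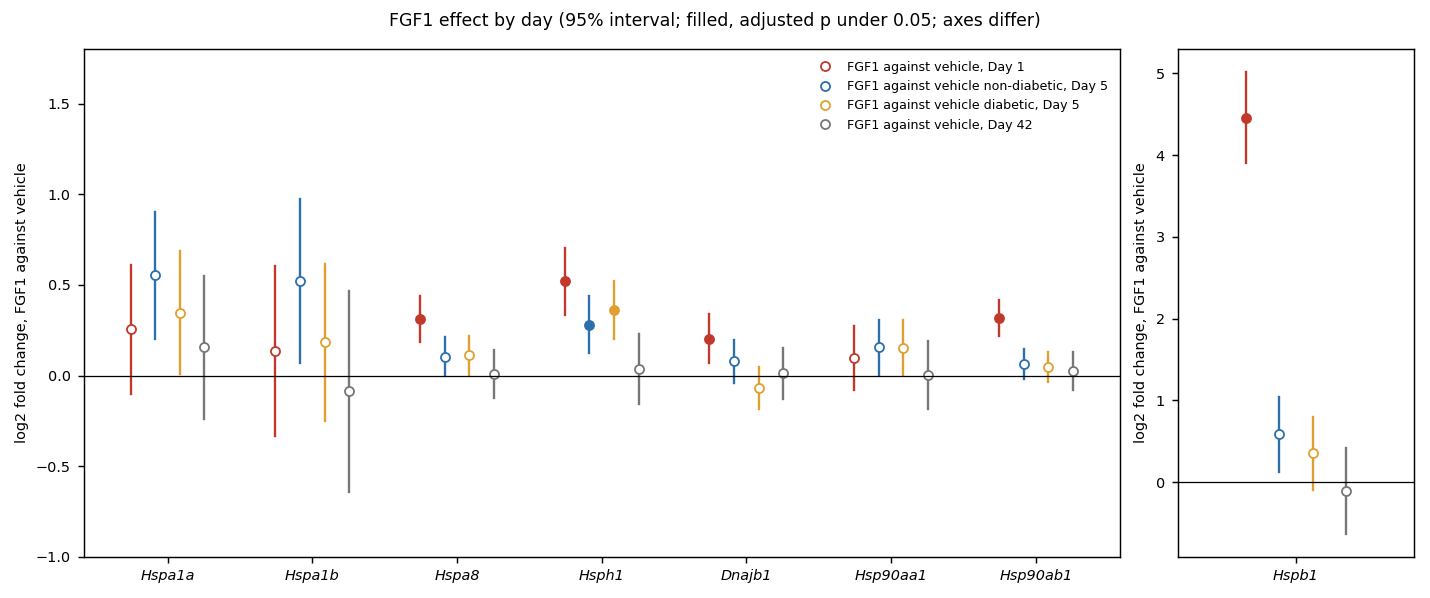
Log2 fold change of FGF1 against vehicle for each gene by day and, on Day 5, by vehicle group; lines are 95% intervals and filled points passed at an adjusted p under 0.05. The left axis covers 7 genes and the right axis, on another scale, Hspb1, at 4.46 on Day 1 and 0.58 or less later.

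Marker genes of cell types were also compared between the groups of Day 1, where 23.4% of all genes were higher and 21.6% lower, and in whole tissue fewer cells of a type and less RNA per cell cannot be told apart. Of 6 microglia markers 5 were higher and 1 lower (summed 143 to 209 CPM with FGF1, 110 to 139 with vehicle). Of 5 oligodendrocyte markers 4 were lower (1778 to 3350 against 2886 to 4367 CPM), as were 2 of 6 neuron markers (2608 to 3373 against 3548 to 4436 CPM). Tanycyte and ependymal markers were lower in 3 of 6 (58.7 to 97.5 against 114 to 150 CPM), and 1 of the 2 choroid plexus markers in the table was lower (1.3 to 4.89 against 4.38 to 5.98 CPM). Astrocyte markers split, with 3 higher and 4 lower of 8 (4780 to 5840 against 4315 to 4990 CPM). Mural and meningeal fibroblast lists each had 2 higher and 2 lower of 6, and the endothelial list 1 higher and 2 lower of 6, with overlapping sums. Of 4 blood cell markers 0 passed by edgeR (3.09 to 11 against 4.52 to 7.88 CPM). Of 8 hypothalamic neuron genes 1 was higher and 1 lower (753 to 1154 against 1135 to 1488 CPM), and of the 3 cortical and hippocampal genes 0 passed. Immediate early genes, switched on by growth factors and by neuronal activity, were higher in 6 of 9, with a median log2 fold change of 1.70 (164 to 532 against 102 to 136 CPM). No listed gene in the table was at 0 throughout a group, but listed genes missing from the table could not be counted. The part of these values in the chaperone results was not tested.

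On Day 5 Hsph1 was the only one of the 8 that passed. It had 115 to 172 CPM (median 128) in FGF1-treated mice, 98.3 to 118 (median 107) in vehicle-treated mice labelled non-diabetic and 87.7 to 121 (median 101) in those labelled diabetic. In each comparison 8 of 9 FGF1-treated mice lay above all vehicle-treated mice, and the highest was replicate 9. The log2 fold change was 0.28 (SE 0.08, adjusted p = 0.0311) against the non-diabetic and 0.36 (SE 0.08, adjusted p = 0.00203) against the diabetic group. This makes 1 of 8 genes in each comparison, where 3.25% and 5.79% of all genes passed as higher. Without replicate 9 the values were 0.22 (adjusted p = 0.101) and 0.30 (adjusted p = 0.00792), so only the second comparison kept the call. Both comparisons use the same FGF1-treated mice.

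The other 7 genes did not pass on Day 5. Hspb1 had 5.01 to 8.23 CPM (median 5.86) in FGF1-treated mice, 2.95 to 5.36 (median 3.73) in the non-diabetic and 3.2 to 5.58 (median 5.13) in the diabetic vehicle group. Most FGF1-treated mice, 6 of 9, lay above all mice of either vehicle group. The log2 fold changes were 0.58 (SE 0.23, adjusted p = 0.168) and 0.35 (SE 0.23, adjusted p = 0.386). Hspa1a had 2.45 to 4.81 CPM (median 3.22) with FGF1, 1.91 to 2.67 (median 2.06) in the non-diabetic and 1.46 to 3.61 (median 2.70) in the diabetic group. It overlapped both, with log2 fold changes of 0.55 (SE 0.18, adjusted p = 0.0647) and 0.35 (SE 0.17, adjusted p = 0.235). Hspa1b had 1.38 to 4.42 CPM (median 2.68), 0.749 to 2.41 (median 1.87) and 1.52 to 3.24 (median 2.29), and its log2 fold changes were 0.52 (adjusted p = 0.23) and 0.18 (adjusted p = 0.708). When the counts of the Hspa1 pair were summed, the log2 fold change against the non-diabetic group was 0.54 (SE 0.16, adjusted p = 0.0303), past the threshold, and 0.27 (adjusted p = 0.303) against the diabetic group.

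The abundant genes moved little on Day 5. Hsp90aa1 had 865 to 1091 CPM (median 908) with FGF1, 779 to 878 (median 846) in the non-diabetic and 774 to 892 (median 818) in the diabetic group, with log2 fold changes of 0.16 (adjusted p = 0.297) and 0.15 (adjusted p = 0.229). Hspa8 had 1890 to 2205 CPM (median 1971), 1746 to 1965 (median 1866) and 1754 to 1967 (median 1861). Its log2 fold changes were 0.11 in both comparisons (adjusted p = 0.339 and 0.225). Hsp90ab1 stayed within 935 to 1112 CPM over all 23 mice, and Dnajb1 within 44 to 56.1. Their log2 fold changes were 0.06 and 0.05 for Hsp90ab1 and 0.08 and -0.07 for Dnajb1, none past the threshold. No gene separated all FGF1-treated from all vehicle-treated mice on Day 5, while 2.38% of all genes did so upwards against the non-diabetic and 3.63% against the diabetic group.

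All 8 log2 fold changes against the non-diabetic group were positive, against 47.8% of all genes, and 5 of 8 genes had an unadjusted p under 0.05, against 16.5% of all genes. Against the diabetic group, with the same FGF1-treated mice, 7 of 8 were positive, against 48% of all genes, and 3 of 8 had an unadjusted p under 0.05, against 21.8%. When Day 5 was fitted alone, 5 of 8 genes passed against the non-diabetic group (Hsph1, Hspa1a, Hspa8, Hsp90aa1 and Hspb1) and 3 of 8 against the diabetic group (Hsph1, Hspa8 and Hsp90aa1), all higher. In that fit 11.8% and 16.7% of all genes passed as higher, also more than in the fit over all libraries. Their log2 fold changes were nearly the same as before, for example 0.59 for Hspb1 (adjusted p = 0.0048) and 0.16 for Hsp90aa1 (adjusted p = 0.00343) against the non-diabetic group. In the fit over all libraries, where 3.25% of all genes were higher against the non-diabetic and 5.79% against the diabetic group, marker genes also moved. Against the non-diabetic group 5 of 8 astrocyte, 3 of 6 microglia, 3 of 6 meningeal fibroblast, 2 of 5 oligodendrocyte and 1 of 6 endothelial markers were higher on Day 5, and 0 of the markers of neurons, blood, choroid plexus, mural cells, tanycytes and ependymal cells passed by edgeR. Against the diabetic group 4 astrocyte, 5 microglia, 3 oligodendrocyte, 3 endothelial, 1 meningeal and 1 tanycyte and ependymal markers were higher. Astrocyte markers summed to 5144 to 5682 CPM with FGF1, 4512 to 4708 in the non-diabetic and 4380 to 4901 in the diabetic group, and microglia markers to 222 to 274, 168 to 287 and 153 to 181 CPM. In the same order, oligodendrocyte markers summed to 4763 to 5569, 3467 to 4619 and 3196 to 4808 CPM. Neuron markers summed to 2084 to 2655, 2622 to 2802 and 2472 to 3070 CPM. The part of the marker values in the chaperone results of Day 5 was not tested.

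No difference between the vehicle groups of Day 5 passed the test. None of the 8 genes passed between mice labelled diabetic and non-diabetic by edgeR or by DESeq2, and 0% of all genes did by edgeR. At an unadjusted p under 0.05 there was 1 of the 8, Dnajb1, and 193 of all genes. Dnajb1 had 47.4 to 55.8 CPM (median 51.5) in the diabetic and 44 to 51.2 (median 47) in the non-diabetic group, a log2 difference of 0.15 (SE 0.06, unadjusted p = 0.0267). The 95% intervals of the other 7 spanned no difference.

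On Day 42 no FGF1 effect on these genes was detectable. None of the 8 passed by edgeR or DESeq2, none had an unadjusted p under 0.05, and 0% of all genes passed by edgeR, with 776 genes at an unadjusted p under 0.05. The FGF1-treated mice had 1.73, 3.21, 3.12, 1.54 and 3.22 CPM of Hspb1 and the vehicle-treated mice 2.06, 3.61, 1.95, 2.29 and 3.7. The ranges overlapped, although 2 FGF1-treated mice lay below all vehicle-treated mice, with a log2 fold change of -0.11 (SE 0.27). Hsph1 had 348, 356, 323, 388 and 344 CPM with FGF1 and 377, 321, 374, 377 and 264 with vehicle, where replicate 5 was low. Its log2 fold change was 0.04 (SE 0.10). The 95% interval of the log2 fold change was -0.08 to 0.13 for Hsp90ab1 and -0.13 to 0.14 for Hspa8, and wider for Hspb1, at -0.63 to 0.42.

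The change of the FGF1 effect between days was tested directly, with the non-diabetic vehicle group as the Day 5 control. The study describes a single Day 5 vehicle group while the labels give a non-diabetic and a diabetic one, which of these it used is not stated, and it describes the injected mice as diabetic. These tests share groups with the comparisons above and with each other. Because day and preparation cannot be told apart, a change of effect with time cannot be told from one with preparation. From Day 1 to Day 5 the effect fell by 3.88 on the log2 scale for Hspb1 (SE 0.35, adjusted p = 3.29e-12) and by 0.26 for Hsp90ab1 (SE 0.07, adjusted p = 0.00247). With both Day 5 vehicle groups merged as the control, the changes in effect were -4.00 for Hspb1 and -0.26 for Hsp90ab1. With the non-diabetic control, these 2 of 8 compare with 14.2% of all genes lower in this test. For Hspa8 the change was -0.21 (adjusted p = 0.0613) and for Hsph1 -0.24 (adjusted p = 0.151). Both passed when Day 5 replicate 9 was left out. From Day 1 to Day 42 the effect fell for 4 of 8 genes, where 14.3% of all genes were lower: by 4.57 for Hspb1 (SE 0.37, adjusted p = 2.36e-13), by 0.48 for Hsph1 (SE 0.14, adjusted p = 0.00659), by 0.30 for Hspa8 (SE 0.09, adjusted p = 0.0135) and by 0.29 for Hsp90ab1 (SE 0.07, adjusted p = 0.00196). From Day 5 to Day 42 none passed by edgeR or DESeq2 and none had an unadjusted p under 0.05, where 0.942% of all genes passed.

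Ratios of counts within a library do not depend on library scaling. Hspb1 stood at 0.00115 to 0.003 of Hspa8 counts in vehicle-treated and 0.0146 to 0.0562 in FGF1-treated mice of Day 1, with no overlap. On the other days FGF1-treated and vehicle-treated ranges of this ratio overlapped. Dnajb1 stood at 0.0486 to 0.058 of Hspa8 with vehicle and 0.0455 to 0.0534 with FGF1 on Day 1, and the ranges overlapped. The inducible HSP70 pair together gave 0.00114 to 0.00451 of the counts of Hspa8 over all 47 libraries. The ratio of Hsp90aa1 to Hsp90ab1 was 0.369 to 0.581 with FGF1 and 0.462 to 0.699 with vehicle on Day 1, 0.799 to 0.982 over all groups of Day 5, and 0.484 to 0.843 on Day 42. FGF1 and vehicle ranges overlapped on each day, and Day 5 lay above Day 1, though day and preparation cannot be told apart.

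**Figure D3:**
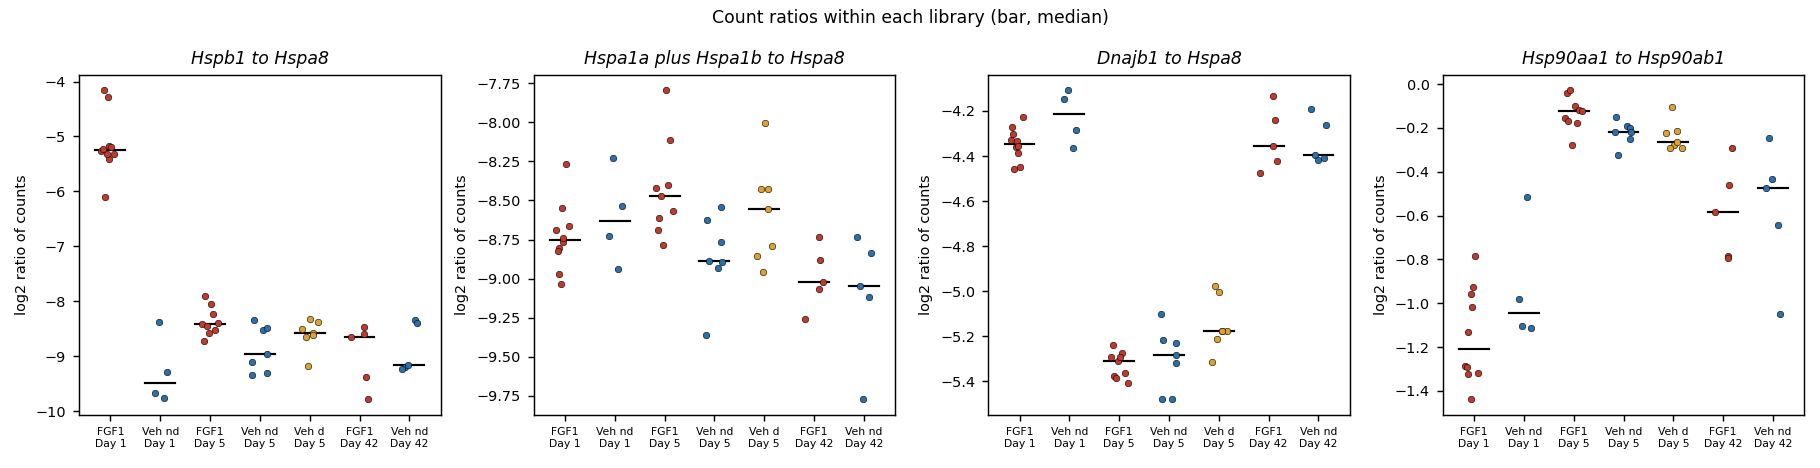
Log2 ratio of counts of gene pairs in each library, by treatment and day, with each point 1 mouse and bars at medians; colours as in the plot of expression by mouse. Only for Hspb1 to Hspa8 on Day 1 (-6.10 to -4.15 with FGF1, -9.76 to -8.38 with vehicle) do FGF1-treated and vehicle-treated mice separate.

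Other genes of the chaperone system were read from lists. Of 83 listed genes, 78 were in the table, and on Day 1 29 were higher and 6 lower. The share that passed in either direction, 44.9%, was near that of all genes (45%), but 37.2% were higher and 7.69% lower, against 23.4% and 21.6% of all genes. The heat shock factors were among them: Hsf1, the main activator of the heat shock response, had a log2 fold change of 0.46 (SE 0.12, adjusted p = 0.00105), and Hsbp1, which binds and restrains it, 0.14 (SE 0.05, adjusted p = 0.0103). Hsf2 (-0.17) and Hsf4 (-0.20) did not pass. On Day 5 and Day 42 none of the 4 passed by edgeR. At an unadjusted p under 0.05 there was Hsf1 against the non-diabetic group of Day 5, Hsf1 and Hsf4 against the diabetic group, and none on Day 42.

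The largest rises of Day 1 among related genes were those of Bag3, Hspb8 and Sdf2l1. Bag3, which links small heat shock proteins to HSP70 and directs clients to autophagy, had 21.2 to 44.1 CPM with FGF1 and 11.4 to 15 with vehicle, a log2 fold change of 1.44 (SE 0.13, adjusted p = 2.2e-12). Hspb8, a small heat shock protein that forms a complex with BAG3, had 31.8 to 70.3 CPM against 22.1 to 30.3 and a log2 fold change of 1.12 (SE 0.12, adjusted p = 1.22e-10). Neither overlapped between groups. Sdf2l1, of the endoplasmic reticulum, followed with 0.85 (SE 0.14, adjusted p = 2.04e-06). The largest falls were those of Clpx (-0.29), a mitochondrial protein unfoldase, Dnajb9 (-0.28), a J-domain protein of the endoplasmic reticulum, and Bag4 (-0.26), an HSP70 co-chaperone.

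By list, and beside the 23.4% of all genes that were higher on Day 1, the HSP90 co-chaperones had 6 higher of 12 with a median log2 fold change of 0.23, and the HSP70 co-chaperones 3 higher and 1 lower of 8 with a median of 0.20. The small heat shock genes had 2 higher of the 3 in the table. Endoplasmic reticulum chaperones had 6 higher and 1 lower of 14, mitochondrial chaperones 4 higher and 2 lower of 8, and the chaperonin and prefoldin list 4 higher of 13. The other HSP70 and HSP110 genes had 1 higher of 6, and other cytosolic J-domain genes 1 higher and 2 lower of 10. On Day 5 6 of the 78 were higher against the non-diabetic group and 9 higher and 1 lower against the diabetic group, where 3.25% and 5.79% of all genes were higher. Cryab, the small heat shock protein alpha B-crystallin, led both (0.61 and 0.67), with Sdf2l1 (0.43 and 0.67) and Chordc1 (0.42 and 0.55), an HSP90 co-chaperone. The one that fell was Hspa9 (-0.23), the mitochondrial HSP70. On Day 42 0 of 78 passed by edgeR and 2 had an unadjusted p under 0.05.

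**Figure D4:**
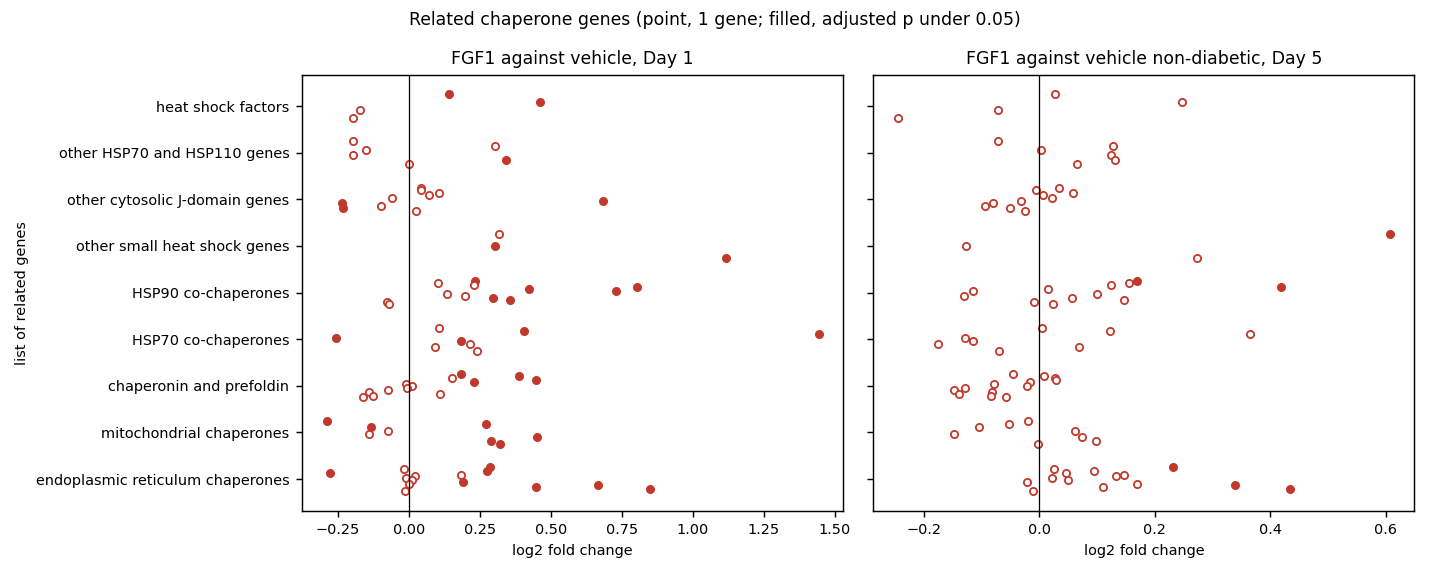
Log2 fold change of each related chaperone gene by list, FGF1 against vehicle on Day 1 (left) and against the non-diabetic vehicle group on Day 5 (right); each point is 1 gene and filled points passed at an adjusted p under 0.05. The horizontal axes differ. On Day 1 Bag3 (1.44) and Hspb8 (1.12) lie farthest to the right, and on Day 5 Cryab (0.61).

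Within groups the 8 genes did not vary as one. Spearman's rho was taken over the 47 libraries after each gene's group mean was subtracted from log2(CPM + 0.5). The points share libraries, depth and dissection, so these are descriptions. Hsph1 and Hsp90aa1 went together most closely (0.75), followed by Hspa8 with Hsp90ab1 (0.49) and with Hsph1 (0.47). Hspb1 went against Hsp90aa1 (-0.58) and Hsph1 (-0.40). The near-identical Hspa1a and Hspa1b gave only 0.23, but both had few counts and the split of reads between them is uncertain. Correlations with the library total lay between -0.23 and 0.23.

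**Figure D5:**
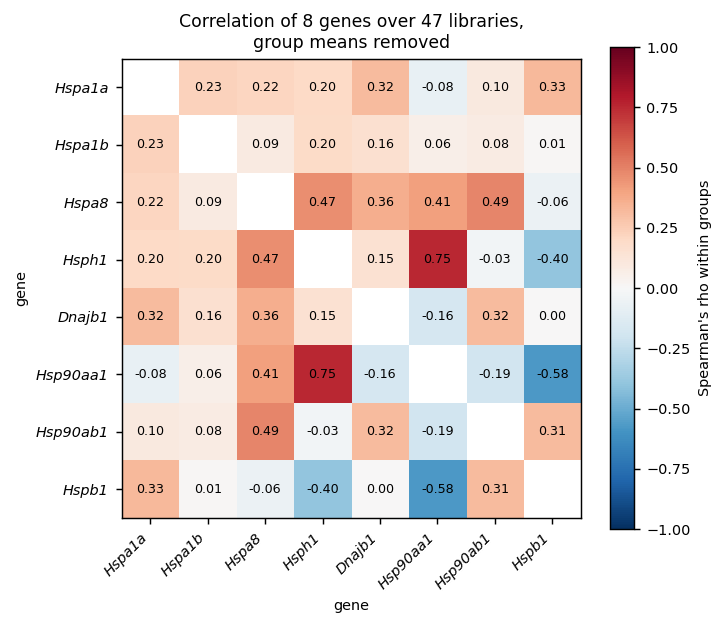
Spearman's rho between pairs of the 8 genes over 47 libraries after group means were removed; red is positive, blue negative, and the number in each cell is rho. The highest is Hsph1 with Hsp90aa1 (0.75) and the lowest Hsp90aa1 with Hspb1 (-0.58).

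Among 14122 genes with a mean of at least 1 CPM, the nearest to Hspb1 by the same measure were Fam129b (0.79), Bag3 (0.78) and Rnf44 (0.76). Bag3 is also named above for its rise on Day 1. For Hspa8 they were Ywhah (0.72), Ahsa1 (0.70), which activates the HSP90 ATPase, and Ctnnb1 (0.67). Hsp90aa1 lay nearest to Agpat5 (0.90), Dnm3 (0.89) and Rcan2 (0.89), and Hsp90ab1 to Letm1 (0.79), Kcnip3 (0.79) and Dnlz (0.78). Hsph1 lay nearest to Tubgcp4 (0.79), Snapc3 (0.77) and 9330159F19Rik (0.76), and Dnajb1 to Akap8l (0.70), Rnpep (0.60) and H13 (0.60). The low-count pair had weaker neighbours: Calr (0.61), Rpn2 (0.57) and Btbd16 (0.57) for Hspa1a, and Bpnt1 (0.55), Zfp933 (0.52) and Zfp3 (0.51) for Hspa1b.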

How the data were processed

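Reads of strand-specific mRNA libraries were aligned with STAR by the authors, who deposited raw whole-number counts per gene. The build is written under a human name (GRCh38). The counting program is not given in the sources used here. A second deposited table holds a preparation code per library. It has no measured unit. Coordinates are from GENCODE M21 (GRCm38), where 14180 of 14221 gene names had a match.

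From the counts, TMM factors were computed and a model with 1 mean for each of 7 groups was fitted over all 47 libraries with edgeR 4.0.16 (R 4.3.3). P-values of the quasi-likelihood test received Benjamini-Hochberg adjustment across the whole table, and a gene passed under 0.05. CPM are scaled by TMM factors. Replicates are numbered in accession order and separate mice. Named related genes are the heat shock factors and, for Days 1 and 5, up to 3 per direction with the largest passing change. The 3 nearest genes by correlation are also named. The members and lists were chosen with earlier results of these data known. Alternatives used DESeq2 1.42.0, its size factors, quantile normalization with limma 3.58.1, other filters, each day alone, merged Day 5 vehicle groups, the summed Hspa1 pair and libraries left out. Leaving out the deepest Day 5 libraries singly was chosen after seeing the data. On simulated data of 14221 genes, a log2 fold change of 0.5 was recovered in 62.5% of changed genes on Day 1, 62% on Day 5 against the non-diabetic group, 69% against the diabetic group and 54% on Day 42. Library totals of 1243280 to 47082400 counts set the counting precision.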

Additional observations from a re-analysis of the deposited data

Results flagged for a closer look

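Over 56 combinations of gene and group, 1 mouse stood apart from the rest of its group in 3, and chance alone flags about 1 in 20. Vehicle-treated replicate 2 of Day 1 had 386 CPM of Hsph1, where the next was 306, and without this mouse the Day 1 log2 fold change of Hsph1 was 0.62. FGF1-treated replicate 9 of Day 5 had 172 CPM of Hsph1, where the next was 137, and 1091 CPM of Hsp90aa1, where the next was 977. It is 1 of the 2 deepest libraries of that day, at 27922100 counts.

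The FGF1 effect differed between days, by a test of the difference itself, in 6 cases. Day and preparation cannot be told apart in these tests. The change in the log2 effect from Day 1 to Day 5 was -3.88 for Hspb1 and -0.26 for Hsp90ab1. From Day 1 to Day 42 it was -4.57 for Hspb1, -0.48 for Hsph1, -0.30 for Hspa8 and -0.29 for Hsp90ab1.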

How the results depend on the processing

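DESeq2, its size factors in edgeR, and no filter (the filter removed 0 genes) left every count and every single-gene call of the 8 genes as reported. Passing counts moved by over 1.5 times as follows. On Day 5 against the non-diabetic group, 2 genes passed after quantile normalization, 2 with merged vehicle groups, 5 with the day fitted alone, and 0 without the 2 deepest FGF1 libraries (Hsph1 0.21, adjusted p = 0.161). Leaving out replicate 8 or 9 gave 0 to 1. Against the diabetic group 3 passed with the day fitted alone. For the difference from Day 1 to Day 5, 4 passed after quantile normalization and 2 to 4 with 1 vehicle-treated mouse of Day 1 or 1 of the 2 deepest Day 5 libraries left out. With an absolute log2 fold change above 0.5 required, 2 passed on Day 1, 0 in each Day 5 comparison, and 1 each in the differences from Day 1 to Day 5 and to Day 42. With the day fitted alone, 11.8% of all genes passed as higher on Day 5 against the non-diabetic and 16.7% against the diabetic group. With the fold change threshold, 19.5% of all genes passed on Day 1. For the other alternatives the share of all genes is not given here, so their counts cannot be set beside it. The cause of these moves was not tested. Counts were 5 on Day 1 without any 1 of the 4 vehicle-treated mice (the 10 FGF1-treated mice were not left out in turn) and 0 on Day 42 without any 1 of its mice.

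Values that changed sign had not passed. After quantile normalization these were, on Day 42, Hspa1b (0.0053) and Hsp90aa1 (-0.000453), between vehicle groups Hspa8 (0.014), from Day 1 to Day 5 Hsp90aa1 (-0.073), from Day 1 to Day 42 Hspa1a (0.044), and from Day 5 to Day 42 Hspa8 (0.0099) and Hsp90ab1 (0.041). With at least 10 counts in every library, Hsp90aa1 was -0.0035 between vehicle groups, and with merged groups Dnajb1 was 0.011 from Day 5 to Day 42. With 1 mouse of these groups left out, Day 42 values ran from -0.028 to 0.045 for Hspa8, -0.216 to 0.035 for Hspa1b, -0.0917 to 0.0602 for Hsp90aa1, -0.22 to 0.040 for Hspb1, -0.00173 to 0.0401 for Hsp90ab1, -0.0196 to 0.0409 for Dnajb1 and -0.0434 to 0.0747 for Hsph1. Hspa1b on Day 1 ran from -0.0223 to 0.233, Hsp90aa1 from Day 1 to Day 5 from -0.0522 to 0.122, and Hspa1a from Day 1 to Day 42 from -0.248 to 0.0312. The 10-count filter removed Hspa1a and Hspa1b, so they have no value there. No paired analysis was possible because replicate numbers follow accession order and pair no mice.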
